A study of Mus musculus with 30 samples.

Results

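The interleukin 4, 10, 15 and 21 systems were followed as 10 genes, 8 coding for receptor chains (Il4ra, Il13ra1, Il2rg, Il2rb, Il21r, Il10ra, Il10rb and Il15ra) and 2 for ligands (Il10 and Il15). They were taken by symbol from the 50686 genes listed in each RNA library, and each matched a single gene ID. mRNA was sequenced from the mouse haematopoietic progenitor lines HPCLSK (strain C57BL/6N in the labels) and HPC7 (129SV for the RNA samples, but C57BL/6N for the chromatin samples of the same line, so its strain is uncertain), neither otherwise treated. Cells of each line carried a retroviral vector for STAT3 Y640F, for STAT3, or empty (named after dsRed), with 3 libraries in each of the 6 groups and 18 in all. All groups grew in the same medium with stem cell factor, the HPCLSK cells on agarose. By the series text the 3 libraries of a group are technical replicates, and errors and p-values below cover only the spread among them. The 12 chromatin samples of the series were not analysed here.

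IL-4 signals through the IL-4 receptor alpha chain paired either with the common gamma chain, coded by Il2rg, or with the IL-13 receptor alpha-1 chain, which also takes up IL-13. The gamma chain is shared by the receptors of IL-2, IL-4, IL-7, IL-9, IL-15 and IL-21, and lies with the IL-2 receptor beta chain in the receptors of IL-2 and IL-15, while IL-15 is held on the presenting cell by the IL-15 receptor alpha chain. IL-10 binds a pair of chains, coded by Il10ra and Il10rb, and is known to act largely through STAT3, as IL-21 does in lymphocytes; IL-4 acts through STAT6 and IL-15 through STAT5. STAT3 Y640F carries a change in the SH2 domain that is known from human lymphoid leukaemias and raises STAT3 activity.

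Il4ra and Il21r are neighbours, at chr7:125552120-125579474 and chr7:125603429-125633570, both on the plus strand of GRCm38, with a gap of 24.0 kb between them. RefSeq promoter windows of GRCm38.p6 were found for 5 of the 10 genes, and those of the IL-4, IL-13 and IL-21 receptor chains and of the gamma chain are shown because these are the receptor genes that moved most with Y640F in HPCLSK, together with the neighbour of Il4ra. Each sequence is the 250 bases before the RefSeq start, written 5′ to 3′ on the strand of the gene, and the capitals mark the 50 bases nearest to the start. The Il4ra and Il13ra1 sequences are on the plus strand at chr7:125552021-125552270 and chrX:36111858-36112107, the Il2rg sequence is on the minus strand at chrX:101268256-101268505, and the Il21r sequence is on the plus strand at chr7:125603179-125603428.
Il4ra: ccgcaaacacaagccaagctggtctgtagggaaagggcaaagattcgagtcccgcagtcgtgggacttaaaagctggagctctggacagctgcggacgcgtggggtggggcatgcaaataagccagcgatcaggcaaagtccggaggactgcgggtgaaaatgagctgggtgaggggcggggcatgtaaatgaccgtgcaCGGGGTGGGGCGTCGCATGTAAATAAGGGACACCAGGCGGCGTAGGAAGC
Il13ra1: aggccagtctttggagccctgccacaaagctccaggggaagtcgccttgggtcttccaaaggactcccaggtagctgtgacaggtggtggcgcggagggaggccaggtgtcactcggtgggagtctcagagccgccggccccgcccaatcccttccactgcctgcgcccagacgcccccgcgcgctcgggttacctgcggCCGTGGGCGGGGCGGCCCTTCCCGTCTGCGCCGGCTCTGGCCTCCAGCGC
Il2rg: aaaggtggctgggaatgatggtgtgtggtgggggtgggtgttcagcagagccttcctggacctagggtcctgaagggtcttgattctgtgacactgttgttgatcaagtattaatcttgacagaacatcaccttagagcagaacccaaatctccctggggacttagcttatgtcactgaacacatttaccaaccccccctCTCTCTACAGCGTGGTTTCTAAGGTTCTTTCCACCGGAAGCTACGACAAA
Il21r: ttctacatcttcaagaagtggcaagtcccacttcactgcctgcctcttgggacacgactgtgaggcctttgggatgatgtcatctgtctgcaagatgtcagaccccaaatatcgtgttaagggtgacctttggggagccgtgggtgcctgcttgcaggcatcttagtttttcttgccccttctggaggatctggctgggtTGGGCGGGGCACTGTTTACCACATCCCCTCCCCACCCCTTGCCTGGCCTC
The motif TTCNNNGAA and the same letters with a spacer of 4 bases between TTC and GAA, forms to which STAT proteins are known to bind, were searched on both strands of the 300-base windows, which add 50 bases after the start. Neither stood in any of the 6 windows of these 5 genes (Il15ra has 2). Of all 32851 RefSeq windows, 8.3% held TTCNNNGAA and 6.95% held the form with the longer spacer. The GC content of the sequences printed was 59.6% for Il4ra, 70.8% for Il13ra1, 49.2% for Il2rg and 55.6% for Il21r.

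The libraries held 9537258 to 38556669 counts of reads in genes, so that 3 counts in a library stood for 0.0778 to 0.315 CPM (counts scaled to the library total, with scaling factors taken over the 18 libraries). Stat3 RNA checked only that groups labelled with a form of STAT3 stood above empty vector. Counts per gene do not tell Y640F from STAT3, so the labels of the forms were not checked. In HPCLSK Stat3 averaged 1901 ± 45.0 CPM with Y640F, 599 ± 42.2 CPM with STAT3 and 355 ± 12.4 CPM with empty vector. In HPC7 it averaged 669 ± 20.9, 996 ± 17.1 and 225 ± 10.1 CPM in the same order (SD, n = 3 each). The STAT3 form therefore changes together with the level of Stat3 RNA, and the counts do not separate the vector's RNA from that of the cell's own gene. Replicate 1 of HPCLSK Y640F and replicate 1 of HPCLSK empty vector stood apart from their groups, as did, less clearly, replicate 1 of HPC7 empty vector; results that rest on the HPCLSK pair are given without them where a call or a count against empty vector changes. The file headers name a single sequencing run for all HPCLSK libraries and another for all HPC7 libraries, so line, strain and run cannot be told apart. Of 20 stem and progenitor genes, 20 averaged at least 1 CPM in each HPCLSK group and 16 or 17 in each HPC7 group, where Hoxa9 was at 0. In bulk RNA, fewer cells of a type and less RNA per cell cannot be told apart.

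A gene was called at a Benjamini-Hochberg adjusted p under 0.05 and a fold change of at least 2 in edgeR's quasi-likelihood test over all genes tested. In HPCLSK with Y640F against empty vector, 4 of the 8 members tested were called, where 16.2% of all genes tested were called. Of these, 3 were higher (9.62% of all genes) and 1 lower (6.57%). The call of Il2rg, among the 3 higher, ended without the 2 HPCLSK libraries that stand apart. Against STAT3, Y640F in HPCLSK also had 4 of 8 called, where 14.2% of all genes were, with 3 higher (8.11%) and 1 lower (6.09%). STAT3 against empty vector in HPCLSK had 0 of 8 called with edgeR and 0 with DESeq2, where 4.6% of all genes were called by edgeR (2.8% higher and 1.79% lower), and 3 of 8 had an unadjusted p under 0.05. In HPC7, Y640F against empty vector had 3 of 8 called, where 8.18% of all genes were, with 1 higher (4.54%) and 2 lower (3.64%). STAT3 against empty vector in HPC7 had 3 of 8 called, where 7.22% of all genes were, with 0 higher (1.81%) and 3 lower (5.41%). Y640F against STAT3 in HPC7 had 3 of 8 called, where 7.89% of all genes were, with 3 higher (6.17%) and 0 lower (1.73%). By adjusted p alone, without the fold minimum, 8, 1 and 7 members passed in HPCLSK for Y640F against empty vector, STAT3 against empty vector and Y640F against STAT3, where 58.5%, 14.1% and 53.8% of all genes did, and 7, 7 and 6 passed in HPC7, where 57.3%, 48.6% and 51.2% of all genes did. The 2 comparisons with empty vector in a line share its libraries. With at most 9 members tested, such shares rest on few genes, and Il13ra1 in HPCLSK and Il10, Il10ra and Il15ra in HPC7 were near 0 outside the group where they were high, so their place among the tested genes came from that group.

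**Figure D1:**
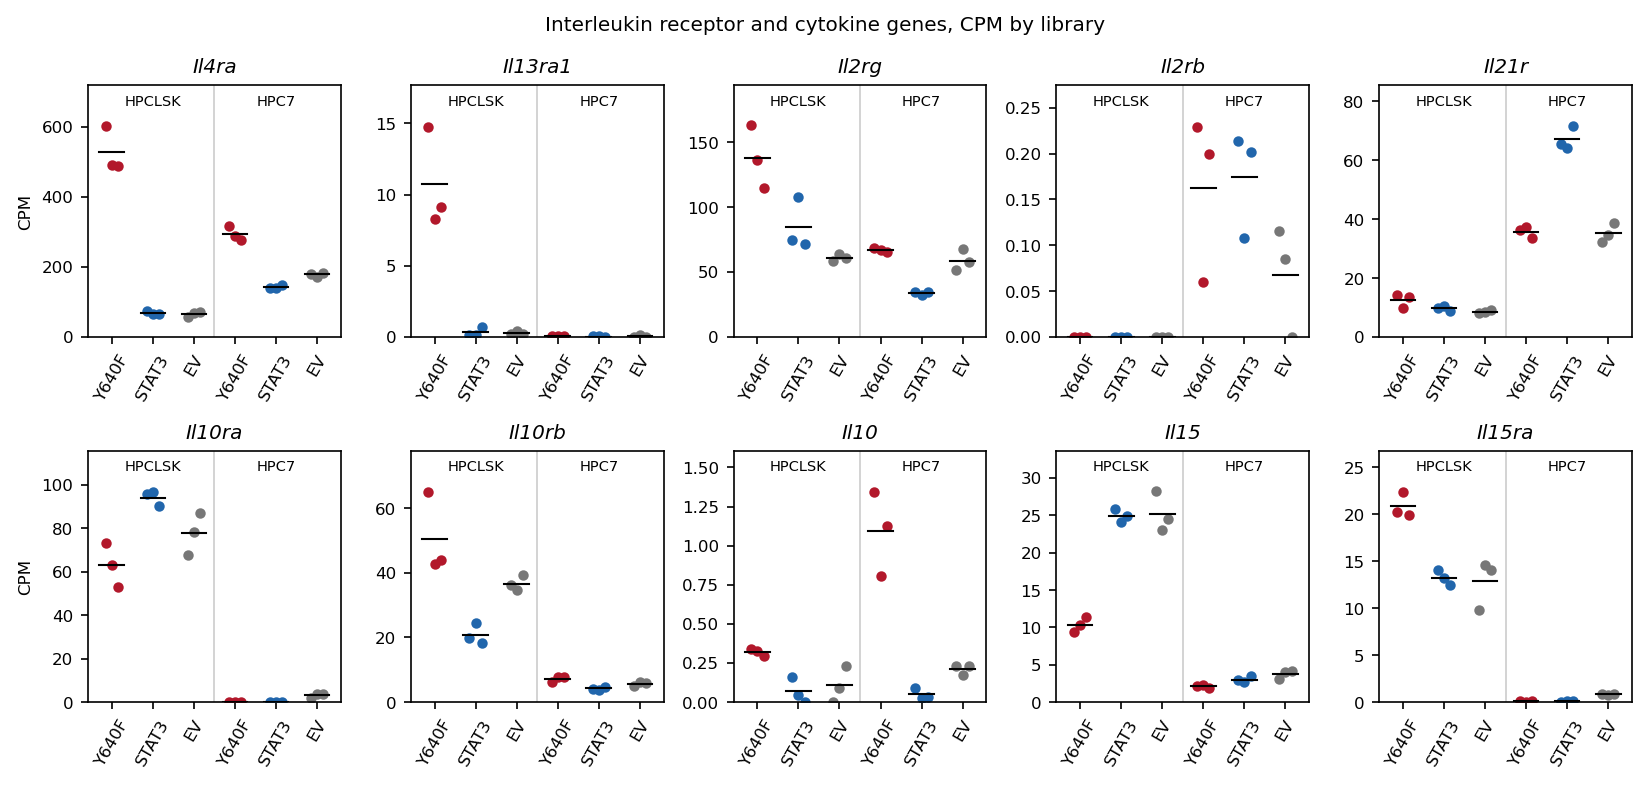
Level of each of the 10 genes in CPM (linear axis, different for each gene) in each of the 18 libraries; points are libraries and bars are means of 3, with HPCLSK left of HPC7 and Y640F, STAT3 and empty vector (EV) from left to right. Il4ra averaged 526 CPM in HPCLSK with Y640F against 65.5 CPM with empty vector, Il15 fell in the same cells, and Il10ra and Il15ra are near 0 in HPC7 with either form of STAT3.

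Il4ra, the chain that binds IL-4, rose with Y640F in HPCLSK and had the highest level per length of the members in those cells. Its level was 602, 490.0 and 487 CPM in the HPCLSK Y640F libraries, against 75.0, 64.5 and 63.8 CPM with STAT3 and 57.1, 68.8 and 70.5 CPM with empty vector. All 3 Y640F libraries lay far above the other 6, and the STAT3 and empty vector libraries overlapped. The log2 fold change was 3.01 ± 0.11 against empty vector (SE; edgeR adjusted p = 3.7e-08), an 8.07-fold difference, and 2.96 ± 0.11 against STAT3 (adjusted p = 5.6e-08). STAT3 against empty vector gave 0.05 ± 0.11 (adjusted p = 0.81). Without the 2 HPCLSK libraries that stand apart, the value of Y640F against empty vector was 2.80.

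In HPC7, Il4ra had 316, 288 and 275 CPM with Y640F, 139, 140.2 and 148 CPM with STAT3, and 180.4, 171 and 182 CPM with empty vector. The 3 groups did not overlap, Y640F being highest and STAT3 lowest. Y640F against STAT3 was called (log2 fold change 1.06 ± 0.05, edgeR adjusted p = 1.4e-09). Against empty vector the values were 0.74 ± 0.05 for Y640F (adjusted p = 3.9e-08) and −0.32 ± 0.05 for STAT3 (adjusted p = 1.1e-04), each under the fold minimum.

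Il13ra1, the chain that joins Il4ra in the receptor for both IL-4 and IL-13, rose with Y640F in HPCLSK out of near absence. It had 219, 127 and 186 counts in the Y640F libraries (14.8, 8.30 and 9.10 CPM), against 2, 3 and 7 counts with STAT3 and 3, 10 and 4 counts with empty vector. No library outside HPCLSK Y640F reached 1 CPM. The ratio of its levels, Y640F over empty vector, was 32.9 with a 95% exact binomial interval of 20.4 to 56.9, and the log2 fold change was 5.05 ± 0.41 (edgeR adjusted p = 3.0e-06). Against STAT3 the log2 fold change was 5.20 ± 0.44 (adjusted p = 6.3e-06) and the ratio 37.7, with an interval of 21.4 to 73.4. Leaving out 1 library at a time gave 4.67 to 6.07 on the log2 scale, the highest without HPCLSK STAT3 replicate 3, which held 7 of the 12 counts. Without the 2 libraries that stand apart, the value against empty vector was 4.59. In HPC7 the gene had 5, 2 and 3 counts over the Y640F, STAT3 and empty vector libraries and was not tested. Such intervals cover counting error only. Il13ra1 lies at chrX:36112110-36171259 on the plus strand.

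Il4ra and Il13ra1 thus both rose in HPCLSK with Y640F, and their levels over the 18 libraries had a Pearson r of 0.589 on the log2 scale, a value set largely by the 6 groups. Summed RNA of 15 monocyte, macrophage and dendritic cell markers moved in the same libraries, at 6746 to 10020 CPM with Y640F, 1294 to 2331 CPM with STAT3 and 1108 to 1344 CPM with empty vector in HPCLSK. Of the 12 markers tested there, 10 were higher with Y640F than with empty vector, where 9.62% of all genes were, and C1qb was at 0 with Y640F. In HPC7 the same sum was 82.9 to 86.5 CPM with Y640F, 50.1 to 53.8 CPM with STAT3 and 58.4 to 64.1 CPM with empty vector, with C1qa at 0 in all 3 groups. The part of these markers' cells in the receptor changes was not tested.

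Il2rg, the common gamma chain, was present in every group and rose with Y640F in HPCLSK by little more than the fold minimum. It had 163, 136 and 115 CPM with Y640F, 74.7, 108 and 71.6 CPM with STAT3, and 58.8, 63.5 and 61.1 CPM with empty vector. The Y640F libraries were the highest, and the STAT3 libraries lay above those of empty vector without overlap. The log2 fold change of Y640F against empty vector was 1.18 ± 0.16 (edgeR adjusted p = 8.8e-05), and 0.99 without the 2 HPCLSK libraries that stand apart, which ends the call. Y640F against STAT3 gave 0.70 ± 0.16 (adjusted p = 0.0032), and STAT3 against empty vector gave 0.49 ± 0.16 (adjusted p = 0.068).

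In HPC7, Il2rg had 68.6, 66.8 and 65.3 CPM with Y640F, 34.6, 31.9 and 34.6 CPM with STAT3, and 51.2, 67.4 and 57.9 CPM with empty vector. The STAT3 libraries were lowest, while Y640F and empty vector overlapped. Y640F against STAT3 was called at a log2 fold change of 1.01 ± 0.08 (edgeR adjusted p = 1.2e-07). This call sits at the fold minimum: the value was 0.97 without HPC7 STAT3 replicate 2, 0.995 without HPC7 Y640F replicate 1, 0.99 with all 18 libraries in the fit, and 0.88 relative to the median of its chromosome. STAT3 against empty vector gave −0.80 ± 0.08 (adjusted p = 1.5e-06) and Y640F against empty vector 0.21 ± 0.07 (adjusted p = 0.027). Il2rg lies at chrX:101264378-101268255 on the minus strand and overlaps Gm20489 on that strand, which had 0 counts in all 18 libraries.

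Il2rb, the signalling partner of the gamma chain in the IL-2 and IL-15 receptors, was nearly undetected. It had 0 counts in all 9 HPCLSK libraries, where 3 counts in a library stood for 0.135 to 0.315 CPM. In HPC7 it had 17 counts over the Y640F libraries, 17 over the STAT3 libraries and 5 over the empty vector libraries, and it was tested in no comparison. The ratio of STAT3 over empty vector in HPC7 was 2.85 with a 95% exact binomial interval of 1.01 to 9.88, and that of Y640F over empty vector was 2.73 with an interval of 0.968 to 9.48. The Y640F libraries had 7, 2 and 8 counts, the STAT3 libraries 7, 4 and 6, and the empty vector libraries 3, 2 and 0, and in CPM both forms overlapped with empty vector. It lies at chr15:78480553-78495066 on the minus strand.

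Il21r, the chain that pairs with the gamma chain to bind IL-21, was higher in HPC7 than in HPCLSK, and within HPC7 it was highest with STAT3. It had 36.3, 37.4 and 33.5 CPM with Y640F, 65.6, 64.1 and 71.8 CPM with STAT3, and 32.2, 34.5 and 38.7 CPM with empty vector in HPC7. The 3 STAT3 libraries lay above the other 6, whose groups overlapped. STAT3 against empty vector gave a log2 fold change of 0.93 ± 0.07 (edgeR adjusted p = 1.2e-07), under the fold minimum, and 1.01, past it, without HPC7 empty vector replicate 3. Y640F against STAT3 gave −0.89 ± 0.07 (adjusted p = 1.1e-07) and Y640F against empty vector 0.04 ± 0.07 (adjusted p = 0.67). In HPCLSK it had 14.3, 9.80 and 13.7 CPM with Y640F, 9.93, 10.7 and 8.67 CPM with STAT3, and 8.18, 8.29 and 9.08 CPM with empty vector, and no comparison within the line was called. Its neighbour Il4ra was lowest with STAT3 in HPC7, so the 2 neighbouring receptor genes ranked the HPC7 groups differently.

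Il10ra, the ligand-binding chain of the IL-10 receptor, fell with both forms of STAT3 in HPC7. It had 1, 1 and 1 counts in the Y640F libraries and 0, 0 and 1 with STAT3, against 48, 90 and 127 counts (1.85, 3.85 and 3.70 CPM) with empty vector. The groups with either form of STAT3 lay far below empty vector. The ratio of levels, empty vector over Y640F, was 110.0 with a 95% exact binomial interval of 37.2 to 536, and empty vector over STAT3 gave 316 with an interval of 56.2 to 12500. The edgeR adjusted p was 1.0e-07 for Y640F and 1.3e-07 for STAT3. Between the forms there were 3 counts against 1, too few to tell a difference.

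In HPCLSK, Il10ra stood far higher and differed less between groups. It had 73.3, 63.0 and 52.8 CPM with Y640F, 95.6, 96.6 and 90.1 CPM with STAT3, and 67.7, 78.2 and 87.2 CPM with empty vector. Y640F overlapped with empty vector, and STAT3 lay above both. The log2 fold change of Y640F was −0.30 ± 0.12 against empty vector (edgeR adjusted p = 0.044) and −0.58 ± 0.12 against STAT3 (adjusted p = 0.0016), and STAT3 against empty vector gave 0.28 ± 0.11 (adjusted p = 0.14). None was called. Without the 2 libraries that stand apart, Y640F against empty vector was −0.53. Il10ra lies at chr9:45253837-45269149 on the minus strand, with the microRNA gene Mir7086 overlapping it on that strand at 0 counts in all 18 libraries.

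Il10rb, the second chain of the IL-10 receptor, shared with IL-22 and interferon lambda receptors, was higher with Y640F than with STAT3 in HPCLSK. It had 65.2, 42.8 and 43.9 CPM with Y640F, 19.9, 24.5 and 18.2 CPM with STAT3, and 36.1, 34.6 and 39.2 CPM with empty vector. The 3 groups did not overlap, with empty vector between the forms. Y640F against STAT3 gave a log2 fold change of 1.26 ± 0.17 (edgeR adjusted p = 1.1e-04), and 1.01 without the 2 libraries that stand apart. Against empty vector the values were 0.47 ± 0.16 for Y640F (adjusted p = 0.023) and −0.79 ± 0.17 for STAT3 (adjusted p = 0.0098). The first of these was 0.22 without the 2 libraries that stand apart (adjusted p = 0.090).

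In HPC7, Il10rb ranked the groups in the same order at lower levels, 6.29, 7.71 and 7.75 CPM with Y640F, 4.14, 3.90 and 4.61 CPM with STAT3, and 4.90, 6.07 and 5.77 CPM with empty vector. Y640F against STAT3 gave 0.81 ± 0.12 (edgeR adjusted p = 6.6e-05), Y640F against empty vector 0.40 ± 0.12 (adjusted p = 0.0093) and STAT3 against empty vector −0.41 ± 0.13 (adjusted p = 0.015). None reached the fold minimum. Il10rb lies at chr16:91406164-91425834 on the plus strand, where Gm21970 overlaps it on the same strand with 0 counts in all 18 libraries.

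Il10, the ligand, an anti-inflammatory cytokine, was low throughout and rose with Y640F in HPC7. It had 41, 27 and 45 counts (1.34, 0.807 and 1.13 CPM) with Y640F, 3, 1 and 1 counts with STAT3, and 6, 4 and 8 counts with empty vector. The groups did not overlap, with Y640F highest and STAT3 lowest. The ratio of Y640F over empty vector was 5.05 with a 95% exact binomial interval of 3.05 to 8.83 (log2 fold change 2.34 ± 0.32, edgeR adjusted p = 3.3e-05), and that of Y640F over STAT3 was 21.7, with an interval of 9.02 to 68.1 (4.35 ± 0.42, adjusted p = 1.2e-06). STAT3 against empty vector was also called (−2.02 ± 0.61, adjusted p = 0.014), on 5 against 18 counts. Without HPC7 STAT3 replicate 2 it was −1.69 at an adjusted p of 0.061, and a test against a minimum fold of 1.5 gave an adjusted p of 0.12; over all alternatives the adjusted p was 0.011 to 0.12. With Y640F in HPC7, where this ligand was highest, Il10ra had 3 counts in all.

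In HPCLSK, Il10 had 5, 5 and 6 counts with Y640F, 2, 1 and 0 with STAT3, and 0, 2 and 4 with empty vector, and it was not tested. The ratio of Y640F over empty vector was 2.80, with an interval of 1.04 to 8.75, and that of Y640F over STAT3 was 4.54, with an interval of 1.30 to 24.3. Il10 lies at chr1:131019845-131024974 on the plus strand. In HPC7, the median log2 fold change of genes on chromosome 1 was −0.343 with Y640F and −0.345 with STAT3 against empty vector. Relative to its chromosome, Il10 was at 2.68 with Y640F and −1.67 with STAT3.

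Il15, the ligand that supports natural killer and memory T cells, fell with Y640F in HPCLSK. It had 9.37, 10.3 and 11.4 CPM with Y640F, 25.8, 24.1 and 24.9 CPM with STAT3, and 28.2, 23.1 and 24.5 CPM with empty vector. The Y640F libraries were the lowest, and STAT3 and empty vector overlapped. The log2 fold change was −1.26 ± 0.10 against empty vector (edgeR adjusted p = 2.9e-06) and −1.25 ± 0.10 against STAT3 (adjusted p = 5.3e-06), while STAT3 against empty vector gave −0.01 ± 0.10 (adjusted p = 0.97). Without the 2 libraries that stand apart the value of Y640F against empty vector was −1.13. In HPC7, Il15 had 2.13, 2.33 and 1.85 CPM with Y640F, 2.89, 2.72 and 3.43 CPM with STAT3, and 3.09, 3.98 and 4.22 CPM with empty vector. Y640F was again lowest, but its log2 fold change against empty vector, −0.83 ± 0.16 (adjusted p = 4.9e-04), did not reach the fold minimum. Il15 lies at chr8:82331632-82403222 on the minus strand.

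Il15ra, the chain that holds and presents IL-15, was higher with Y640F in HPCLSK and lower in HPC7. In HPCLSK it had 20.2, 22.3 and 19.9 CPM with Y640F, 14.1, 13.2 and 12.5 CPM with STAT3, and 9.82, 14.6 and 14.1 CPM with empty vector. Y640F was highest without overlap, at a log2 fold change of 0.69 ± 0.13 against empty vector (edgeR adjusted p = 0.0011) and 0.65 ± 0.14 against STAT3 (adjusted p = 0.0021), both under the fold minimum. In HPC7 it had 4, 0 and 4 counts with Y640F, 1, 5 and 2 with STAT3, and 22, 18 and 28 counts with empty vector. It fell there with both forms, by 3.32 ± 0.48 on the log2 scale with Y640F (adjusted p = 5.0e-05) and by 3.28 ± 0.48 with STAT3 (adjusted p = 7.6e-05). The ratio of levels, empty vector over Y640F, was 10.6 with a 95% exact binomial interval of 5.07 to 25.5. Il15ra lies at chr2:11705290-11734317 on the plus strand, and the median log2 fold change of genes on chromosome 2 was 0.47 in HPC7 with Y640F against empty vector, so that relative to its chromosome Il15ra was at −3.79.

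Granulocyte markers moved with Il10ra and Il15ra in HPC7. Their summed RNA, over 14 genes, was 139 to 162 CPM with Y640F, 284 to 308 CPM with STAT3 and 375 to 711 CPM with empty vector. Of the 7 tested there, 6 were lower with Y640F and 6 with STAT3, where 3.64% and 5.41% of all genes were. Mmp8 and Ly6g were at 0 in all 3 groups. In HPCLSK the same sum was 16910 to 20200 CPM with Y640F, 15040 to 22730 CPM with STAT3 and 8434 to 13130 CPM with empty vector. Other lists also held lower genes in HPC7. With STAT3, 6 of 19 stem and progenitor genes were lower and 0 higher. So were 4 of 9 monocyte, macrophage and dendritic cell markers (1 higher) and 2 of 5 T and natural killer cell markers (0 higher). With Y640F the same lists had 3, 1 and 2 lower and 2, 2 and 1 higher. The part of the cells that carry any of these markers in the change of Il10ra and Il15ra was not tested. The sum of 17 T and natural killer cell markers, carried largely by Nkg7, moved with Il15 in HPCLSK. It was 19.0 to 37.7 CPM with Y640F, 269 to 297 CPM with STAT3 and 242 to 262 CPM with empty vector. Cd3e, Cd3g, Cd8a, Cd8b1, Trbc2, Ncr1, Gzma and Tbx21 were at 0 in these 3 groups. Only 2 of the 17 averaged 1 CPM, and most of the sum was Nkg7, a gene of cytotoxic granules, at 25.0 ± 10.2 CPM with Y640F, 276 ± 14.4 CPM with STAT3 and 247 ± 9.54 CPM with empty vector. Of the 2 such markers tested, 1 was lower with Y640F than with empty vector. Sums of other lists were also lower in the same libraries. The sum of 15 mast cell, basophil and eosinophil markers was 1218 to 1714 CPM with Y640F, 3615 to 3670 CPM with STAT3 and 4740 to 6506 CPM with empty vector, and 4 of the 9 tested were lower and 2 higher with Y640F than with empty vector. The sum of 10 megakaryocyte markers was 494 to 732 CPM with Y640F, 798 to 909 CPM with STAT3 and 1191 to 1699 CPM with empty vector (4 of 7 lower, 1 higher). That of the 20 stem and progenitor genes was 4125 to 4776, 6108 to 6318 and 6977 to 7387 CPM in the same order (5 lower, 3 higher). Of all genes tested in HPCLSK, 6.57% were lower and 9.62% higher with Y640F than with empty vector. The part of the cells that carry these markers in the change of Il15 was not tested.

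**Figure D2:**
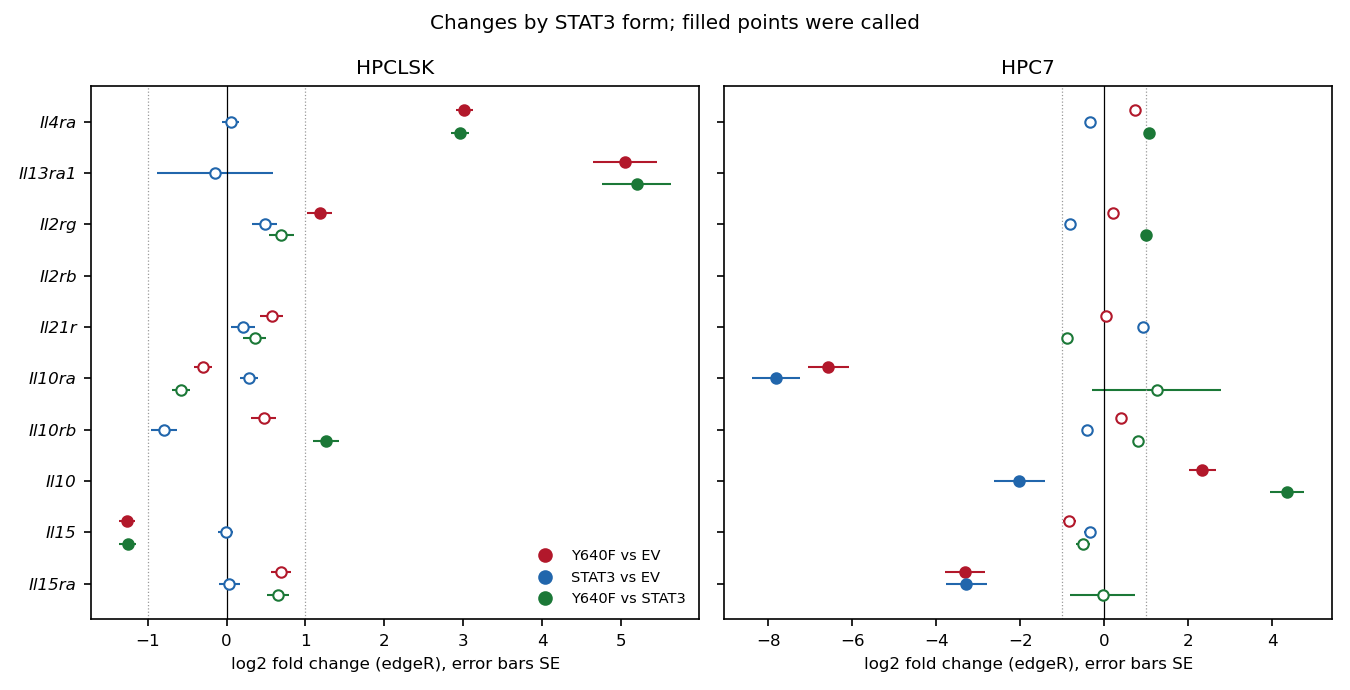
Log2 fold changes of the members tested (horizontal axis, error bars SE) for Y640F against empty vector, STAT3 against empty vector and Y640F against STAT3 in HPCLSK (left) and HPC7 (right); filled points were called and dotted lines mark the fold minimum of 2. In HPCLSK the STAT3 points lie within the dotted lines, and in HPC7 the lowest points are those of Il10ra, at −6.57 with Y640F and −7.82 with STAT3. Il2rb has no point, Il13ra1 has none in HPC7 and Il10 none in HPCLSK.

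Most members differed between the lines without added STAT3. With empty vector, 7 of 9 members tested were called between HPCLSK and HPC7, where 36.4% of all genes tested were called, and the 7 also passed by adjusted p alone, as 80.6% of all genes did. Of these, 5 were higher in HPCLSK (22.8% of all genes) and 2 lower (13.6%). The higher ones were Il10ra (log2 fold change 4.62 ± 0.17, edgeR adjusted p = 6.2e-15), Il15ra (3.99 ± 0.21), Il13ra1 (2.97 ± 0.93), Il15 (2.73 ± 0.12) and Il10rb (2.71 ± 0.16). The lower ones were Il21r (−2.05 ± 0.11) and Il4ra (−1.44 ± 0.09). Il13ra1 rested on 17 against 3 counts, a ratio of 8.91 with an interval of 2.58 to 47.5, and without HPCLSK empty vector replicate 2 its log2 fold change was 2.49 at an adjusted p of 0.058, while without HPC7 empty vector replicate 2, which held the 3 counts, it was 5.95 (adjusted p = 0.0012). Il2rg, at 0.06 ± 0.13 (adjusted p = 0.69), and Il10, at −0.90 ± 0.64 (adjusted p = 0.20), were not called, though Il10 reached −1.87 at an adjusted p of 0.047 without HPCLSK empty vector replicate 3; over all alternatives its adjusted p was 0.047 to 0.47.

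Levels between genes were compared per length as TPM (counts scaled by exonic length and then by the library's sum). With empty vector in HPCLSK, Il2rg stood at 93.2 ± 3.19 TPM, Il10ra at 80.9 ± 10.1, Il15 at 40.6 ± 4.40, Il4ra at 39.7 ± 4.34, Il10rb at 35.0 ± 2.32, Il15ra at 10.5 ± 2.14 and Il21r at 9.33 ± 0.545 TPM (SD, n = 3). In HPC7 the order was led by Il4ra (108 ± 2.38 TPM), Il2rg (90.0 ± 13.2 TPM) and Il21r (38.6 ± 3.46 TPM), and the others lay at 6.07 TPM or less. With Y640F in HPCLSK, Il4ra came first, at 276 ± 26.7 TPM, above Il2rg at 182 ± 27.9 TPM, and Il13ra1 reached 9.07 ± 2.71 TPM.

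**Figure D3:**
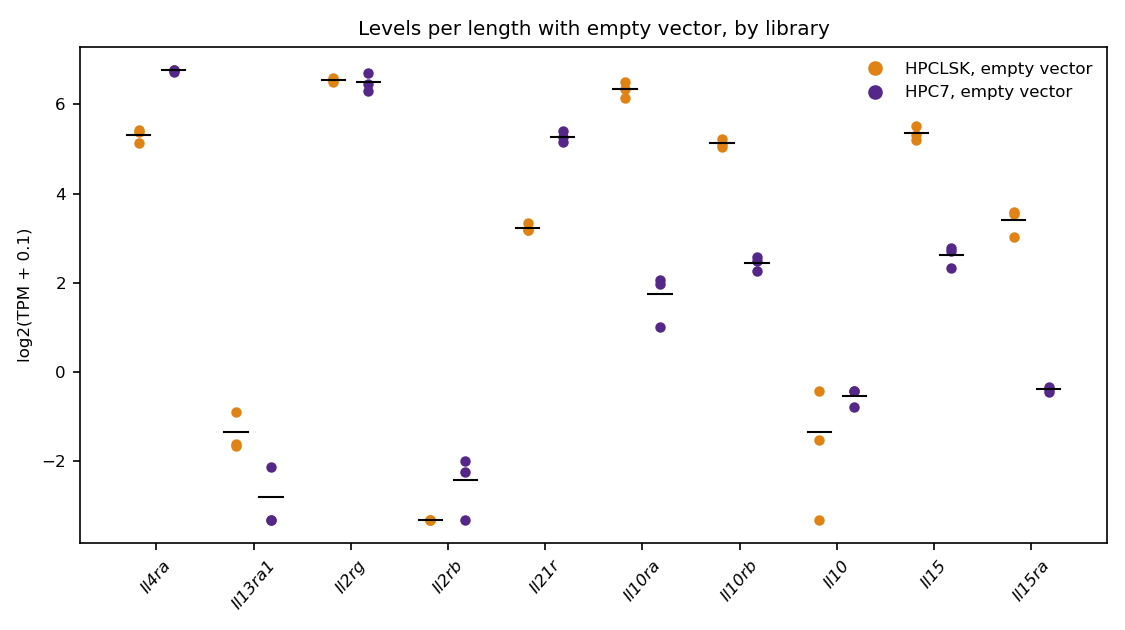
Level per length of the 10 genes with empty vector, as log2(TPM + 0.1) on the vertical axis, in HPCLSK (orange, left) and HPC7 (purple, right). Points are libraries, and each bar is the mean TPM of 3 libraries placed on the same log2 scale. Il2rg lies at nearly the same height in both lines, Il10ra, Il10rb, Il15 and Il15ra are higher in HPCLSK, and Il4ra and Il21r are higher in HPC7.

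Over the 6 groups, the order of Il4ra was HPCLSK Y640F, HPC7 Y640F, HPC7 empty vector, HPC7 STAT3, HPCLSK STAT3 and HPCLSK empty vector, and of these neighbours only the last pair overlapped. Il2rg was highest in HPCLSK Y640F and lowest in HPC7 STAT3, and HPCLSK empty vector and HPC7 empty vector overlapped. Il21r was highest in HPC7 STAT3, and neighbours in its order among the 3 HPCLSK groups overlapped, though the Y640F libraries lay above those of empty vector there. Il10ra, Il15 and Il15ra had all 3 HPCLSK groups above all 3 HPC7 groups, as did Il10rb. Il10 was highest in HPC7 Y640F, followed by HPCLSK Y640F, neither overlapping with the next group, and the 4 groups below overlapped as neighbours. Il13ra1 was highest in HPCLSK Y640F, and the other HPCLSK groups lay above the 3 HPC7 groups in mean.

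The response to a form of STAT3 differed between the lines for some members, tested as the log2 fold change in HPCLSK minus that in HPC7 over all 18 libraries. For Y640F against empty vector, 4 of 9 members were called, where 15% of all genes tested were called; all 4 had the larger value in HPCLSK (7.74% of all genes, and 7.25% had the smaller). By adjusted p alone 6 members and 48.6% of all genes passed. Il4ra differed by 2.28 ± 0.12 (edgeR adjusted p = 5.1e-11), its log2 fold change being 3.01 in HPCLSK and 0.74 in HPC7. Il10ra differed by 6.23 ± 0.57 (adjusted p = 5.8e-08) and Il15ra by 4.0 ± 0.47 (adjusted p = 1.1e-06). Il13ra1 differed by 4.68 ± 1.77 (adjusted p = 0.035), against 5 and 3 counts in HPC7, and without HPC7 empty vector replicate 2, which held those 3 counts, the value was 1.67 at an adjusted p of 0.84. Il2rg, at 0.985 ± 0.19 (adjusted p = 2.1e-04), lay just under the fold minimum and passed it without HPC7 empty vector replicate 1 (1.06), HPCLSK empty vector replicate 2 (1.02) or HPCLSK Y640F replicate 3 (1.095), and with DESeq2 (1.00).

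For STAT3 against empty vector, 3 of 9 members differed between the lines, where 8.25% of all genes tested did; all 3 had the larger value in HPCLSK (6.16% of all genes, and 2.09% had the smaller). By adjusted p alone 5 members and 30.4% of all genes passed. They were Il10ra (7.98 ± 0.63, edgeR adjusted p = 2.2e-08; 7.49 to 9.51 with 1 library left out, the highest without HPC7 STAT3 replicate 3, which held the only count of its group), Il15ra (3.29 ± 0.48, adjusted p = 3.5e-05) and Il2rg (1.29 ± 0.19, adjusted p = 3.8e-05). Il10ra and Il15ra were near 0 in HPC7 with either form, and in HPCLSK neither was called. Stat3 RNA itself differed in these contrasts, by 0.85 ± 0.07 for Y640F and −1.39 ± 0.07 for STAT3, so that the line and the level of Stat3 RNA cannot be told apart.

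**Figure D4:**
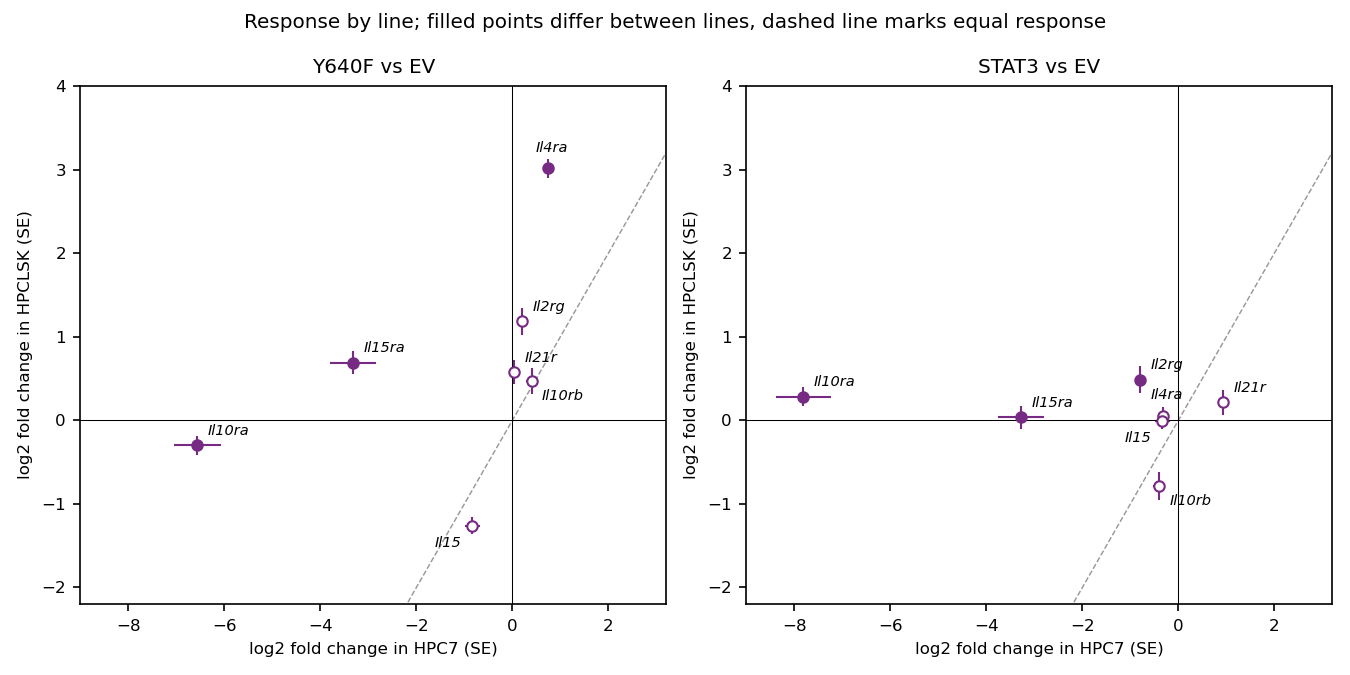
Log2 fold change in HPCLSK (vertical axis) against that in HPC7 (horizontal axis) for the 7 members tested in both lines, with Y640F (left) and STAT3 (right) against empty vector; bars are SE, the dashed line marks equal values and filled points differed between the lines. Il10ra and Il15ra lie far to the left in both panels, and Il4ra lies at 3.01 in HPCLSK against 0.74 in HPC7 with Y640F.

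Genes known to respond to these cytokines were read from lists. Whether a receptor or its ligand took part in any change of these lists was not tested. Of 14 genes that IL-10 or STAT3 is known to induce in macrophages, 13 were tested in HPCLSK. With Y640F against empty vector 10 rose and 0 fell there, where 9.62% of all genes rose and 6.57% fell, and the median log2 value was 1.62, against −0.01 over all genes tested. They were led by Il1rn, the interleukin 1 receptor antagonist (6.99 ± 0.85), Slfn4 (3.47 ± 0.38), Hmox1, a haem oxygenase (3.07 ± 0.51), and Socs3, the feedback inhibitor (2.79 ± 0.14), all with edgeR adjusted p of 4.5e-04 or less. Without the 2 libraries that stand apart the count was 11 and 0. Of the 14 genes, 13 averaged at least 1 CPM in HPCLSK with Y640F, 10 with STAT3 and 9 with empty vector. Some may thus have been tested only because they were high with Y640F, which limits the count as a share. With STAT3 against empty vector in HPCLSK 0 of the 13 were called with edgeR (1 without the 2 libraries that stand apart), where 4.6% of all genes were. The median over the 13 was 0.36, and Socs3 (0.51, edgeR adjusted p = 0.037), Bcl3 (0.36, adjusted p = 0.046) and Sbno2 (0.35, adjusted p = 0.0026) passed by adjusted p alone. In HPC7, 10 of the list were tested. With Y640F against empty vector 2 rose, Socs3 (2.34 ± 0.10) and Bcl3 (1.24 ± 0.12), where 4.54% of all genes rose. With STAT3 against empty vector 3 fell, where 5.41% of all genes did: Bcl3 (−2.49 ± 0.17), Slamf1 (−1.96 ± 0.21) and Hmox1 (−1.16 ± 0.12). The receptor chain Il10ra had 3 and 1 counts in these Y640F and STAT3 groups.

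Of 17 genes that IL-4 is known to induce through STAT6, 6 were tested in HPCLSK, and 3 rose and 0 fell with Y640F against empty vector (4 and 0 without the 2 libraries that stand apart), where 9.62% of all genes rose and 6.57% fell; the median log2 value was 1.54. The 3 were the transglutaminase gene Tgm2 (4.85 ± 0.36), Clec7a, the beta-glucan receptor dectin-1 (4.65 ± 0.45), and Chil3 (2.16 ± 0.42), a chitinase-like protein. The others tested were under the fold minimum. Mrc1 was higher (0.925, edgeR adjusted p = 0.036), while Myc (−0.68, adjusted p = 0.005) and Clec10a (−0.99, adjusted p = 0.018) were lower. Over the HPCLSK Y640F libraries, Arg1 had 1 count and Retnla and Fcer2a had 0. Chil3 and Tgm2 also rose there with STAT3 (2.42 ± 0.43 and 1.53 ± 0.44), where Il4ra was not called. Clec7a and Chil3 are also genes of myeloid cells. Without the libraries that stand apart, 3 rose with STAT3. In HPC7, 3 were tested and only Gata3 rose with Y640F against empty vector (1.07 ± 0.13), where 4.54% of all genes rose. Il4 had 8, 3 and 4 counts and Il13 had 1, 0 and 2 counts over the HPCLSK Y640F, STAT3 and empty vector libraries. The part of IL-4 or IL-13 signals in the changes of this list was not tested.

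Of 16 genes known to respond to IL-2, IL-15 or IL-21, through STAT5 or STAT3, 12 were tested in each line. In HPCLSK with Y640F against empty vector 4 rose and 3 fell (5 and 3 without the 2 libraries that stand apart), where 9.62% of all genes rose and 6.57% fell, led by Prdm1, a transcriptional repressor (5.16 ± 0.67), Ccnd2, a D-type cyclin (−3.34 ± 0.15), Socs2 (−2.45 ± 0.38) and Bcl6 (2.35 ± 0.13). In HPC7, 5 rose and 1 fell with Y640F, where 4.54% of all genes rose and 3.64% fell, among them the kinase genes Pim2 (1.67 ± 0.06) and Pim1 (1.32 ± 0.05) and the perforin gene Prf1 (1.63 ± 0.10), and Lta fell (−1.15 ± 0.31). With STAT3 against empty vector in HPCLSK, 1 rose and 0 fell, where 2.8% of all genes rose and 1.79% fell. It was Socs2, at 1.79 ± 0.25 (edgeR adjusted p = 8.0e-04), opposite in sign to its value with Y640F. With STAT3 in HPC7, 1 rose, Cish (1.43 ± 0.10), and 2 fell, Lta (−1.23 ± 0.31) and Pim1 (−1.06 ± 0.05), where 1.81% of all genes rose and 5.41% fell. The median log2 fold change with Y640F was −0.10 in HPCLSK and 0.50 in HPC7, beside −0.01 and 0.00 over all genes tested.

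Of 25 JAK-STAT genes, 24 were tested in HPCLSK, and 5 rose and 1 fell with Y640F against empty vector (4 and 1 without the 2 libraries that stand apart), where 9.62% of all genes rose and 6.57% fell; the median log2 value was 0.16. Of these, Socs3 (2.79), Socs2 (−2.45), Stat3 (2.43) and Socs1 (1.73) moved most, Stat3 being the gene the vector supplies. Stat6, which mediates IL-4 signals, was also called (1.10 ± 0.07), little past the fold minimum. It had 293 to 357 CPM with Y640F and 143 to 153 CPM with empty vector. Which call changed without the 2 libraries that stand apart is not given here. In HPC7, 3 of 23 rose and 1 fell with Y640F, at a median of 0.24 and where 4.54% and 3.64% of all genes did, the fall being that of Stat4 (−1.75 ± 0.11). Of the other gamma chain and IL-4 or IL-13 genes, 3 were tested in HPCLSK, and Tslp (4.36 ± 0.65) and Il7r (4.21 ± 0.53) rose with Y640F. With STAT3 against empty vector 0 were called, and 1 without the 2 libraries that stand apart. Tslp had 46, 1 and 2 counts over the HPCLSK Y640F, STAT3 and empty vector libraries and averaged 0.908 CPM with Y640F. Its place among the tested genes came from that group. Il7r codes for a partner of the gamma chain, and it averaged 9.22 ± 6.04 CPM with Y640F, 1.78 ± 0.650 CPM with STAT3 and 0.490 ± 0.0762 CPM with empty vector. Il9r, another partner of the gamma chain, averaged 100.1 CPM with Y640F, 116 CPM with STAT3 and 124 CPM with empty vector in HPC7, against 0.0326, 0.403 and 0.276 CPM in the same HPCLSK groups. Of the other IL-10 family genes, Il20rb rose in HPCLSK with Y640F (1.56 ± 0.23), and Il22 and Il21 had 0 counts in all 18 libraries.

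The genes whose log2 CPM ran most like a member's over the 18 libraries, among 11849 compared, were Ralgds for Il4ra (Pearson r 0.969), Lifr for Il13ra1 (0.993), Csf1 for Il2rg (0.959), Mdm1 for Il21r (0.990), Tdrkh for Il10ra (0.996), Tmem192 for Il10rb (0.987), Ifit1 for Il10 (0.949), Exoc4 for Il15 (0.995) and Irak3 for Il15ra (0.997). Among the members, Il10ra and Il15ra ran most alike (0.981), and Il21r ran opposite to Il10ra (−0.947). These values are descriptions over libraries that share 6 groups and 2 lines, and the difference between the lines enters each of them.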

How the data were processed

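RNA counts of 18 libraries in 6 groups of 3 were analysed. The files deposited by the authors hold raw counts of exonic reads per gene. Per their headers, featureCounts 1.5.1 was run with strand option 2 and the GENCODE M13 annotation (GRCm38). The alignments were made by STAR, and Trimmomatic is named in the submitters' processing notes. The series text and the sample labels name different library kits. Gene IDs were matched to symbols for 50376 of 50686 genes. The quasi-likelihood test of edgeR 4.0.16 (R 4.3.3) was used after filterByExpr and TMM scaling, with Benjamini-Hochberg adjustment, over the 9 libraries of a line (6 residual degrees of freedom) or all 18 (12) for comparisons between lines. Counts over genes near 0 were compared by exact binomial intervals at 95%. CPM were scaled over the 18 libraries; TPM used the exonic length in the files. The fit was tested on simulated data. DESeq2 1.42.0, other scalings, filters and fold rules, a replicate block and leaving out each library were alternatives. The members, lists and the rule for named genes (all members, Stat3, up to 4 called genes of a list by size of change in each comparison within a line, and the genes most like a member) were chosen with earlier results of these data known. Other genes named from the lists were chosen after their values were seen.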

Additional observations from a re-analysis of the deposited data

Results flagged for a closer look

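These 7 values are differences between the lines in the response to a form of STAT3, each past the threshold in a test of the difference itself (the log2 fold change in HPCLSK minus that in HPC7, edgeR over 18 libraries). For Y640F against empty vector they are 2.28 for Il4ra, 4.68 for Il13ra1, 6.23 for Il10ra and 4.0 for Il15ra. For STAT3 against empty vector they are 1.29 for Il2rg, 7.98 for Il10ra and 3.29 for Il15ra. The value of Il13ra1 rests on 5 and 3 counts in the HPC7 Y640F and empty vector libraries: without HPC7 empty vector replicate 2 it was 1.67 (adjusted p = 0.84), without HPC7 Y640F replicate 1 the adjusted p was 0.053, and against a minimum fold of 1.5 the adjusted p was 0.099. The values of Il10ra and Il15ra depend on counts near 0 in HPC7 with either form, so that the size is set in part by the fit's prior count. Line and sequencing run cannot be told apart, although each response is a contrast within its own run.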

How the results depend on the processing

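Of the recomputed member values, 1563 stayed on their side of the threshold, 22 of these changing sign while not called, 34 crossed it upward, 11 crossed it downward and 0 changed sign while called. With a filter of at least 1 CPM in 3 libraries, 1 member was called in HPC7 for Y640F and 1 for STAT3 against empty vector, since Il10 and Il15ra were then not all tested. With the adjusted p alone, the genes called in HPC7 numbered 7263 (Y640F against empty vector), 6165 (STAT3 against empty vector) and 6488 (Y640F against STAT3), with 7, 7 and 6 members. In HPCLSK they numbered 7349, 1766 and 6756 in the same order, with 8, 1 and 7 members. For empty vector between the lines 11193 genes were called, and for the line differences 6755 (Y640F) and 4218 (STAT3), the last with 5 members. Leaving out each library in turn gave 3 members called for HPC7 Y640F against empty vector, 2 to 4 for HPC7 STAT3 against empty vector, 2 to 3 for HPC7 Y640F against STAT3, 4 for HPCLSK Y640F against empty vector and against STAT3, 0 for HPCLSK STAT3 against empty vector, 6 to 8 for empty vector between the lines, 3 to 5 for the Y640F line difference and 3 for the STAT3 one. Leaving out both HPCLSK libraries that stand apart ended the call of Il2rg for HPCLSK Y640F against empty vector. This setting was chosen after seeing the data.

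Replicate numbers did not pair the libraries: same-numbered libraries correlated at −0.123 to 0.082 in HPC7 and −0.214 to 0.11 in HPCLSK, with 1 of 18 pairs over 0.1. With the replicate block, 3, 3 and 3 members were called in the HPC7 comparisons and 4, 0 and 4 in the HPCLSK ones, as without it. Depth limits Il2rb, Il10 in HPCLSK and Il13ra1 in HPC7, where counts were too few to test.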
